A study of Sus scrofa with 18 samples.

Results

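The backfat transcriptome of the growing Ningxiang pig, an indigenous fat breed, contained many expressed loci to which the deposited table gave no annotation. These loci were put together from the reads by StringTie, which gave them identifiers beginning with MSTRG, and in the deposited table they had neither a gene name nor a transcript type. Of 27883 loci in all, 2082 had neither, of which 128 lay on X and 31 on Y. From the 1923 loci on the 18 autosomes, 257 that did not reach 0.5 FPKM in at least 3 of the 18 libraries were set aside, and 1666 remained. FPKM is a fragment count scaled to transcript length and library size. Since 503 of the 1666 loci spanned at most 300 bases, levels of loci of unlike span are set side by side only as a description. The 1666 loci were 8.56% of the 19470 loci that passed the same threshold, beside 12624 loci with a transcript type and 5038 loci with a name and no type. The 2 loci nearest the threshold on the inside were MSTRG.15146 (4:92149533-92150203) and MSTRG.886 (1:124444851-124445058), where the library ranked 3 from the top had 0.501 and 0.503 FPKM. The 2 nearest on the outside were MSTRG.4167 and MSTRG.17174, at 0.498 and 0.497 FPKM. Coordinates are those of Sscrofa11.1 throughout.

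Subcutaneous backfat was taken at the shoulder from castrated male pigs kept under standard conditions, with 3 pigs and 3 libraries per stage at 6 ages spaced by 60 days between 60 and 360 days (60 d to 360 d) and no other treatment. The 3 pigs of a stage were full sibs and the pigs of different stages shared 1 parent, so a difference between stages was also a difference between litters, and p-values measure the spread between siblings. All 8 adipocyte markers were detected in every library, with a summed level of 619 to 1022 FPKM, and the libraries held between 74077094 and 84236689 counts. Library 360 d replicate 3 stood apart, with a scaling factor of 0.885 against 0.956 to 1.05 in the other 17. In the read statistics of the paper it also had the highest GC content and the lowest shares of mapped and uniquely mapped reads. The summed level of the Y-linked genes EIF1AY, KDM5D and ZFY was 0.226 to 0.911 CPM (counts scaled to library size) in 60 d replicates 1 and 3, 120 d replicate 2 and all 3 pigs of 180 d, 13.1 CPM in 300 d replicate 2 and 128 to 278 CPM in the other 11, although all the pigs are described as castrated males. Skeletal muscle markers reached 351 FPKM in 180 d replicate 1, 181 FPKM in 120 d replicate 2 and 33.7 FPKM in 240 d replicate 1, against a median of 1.80 FPKM. Liver markers reached 398 FPKM in 240 d replicate 2 and 299 FPKM in 300 d replicate 2, against a median of 6.81 FPKM.

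As background, an assembler joins mapped reads into transcripts whether or not a gene is known at that place. It reads the strand of a transcript from its splice sites, and a fragment without a splice site carries no strand unless the library marks it. Libraries made from total RNA after removal of ribosomal RNA also keep pre-messenger RNA, so reads in introns, antisense transcripts, unannotated ends of genes and non-coding RNAs can all give such loci. White adipose tissue stores triglyceride, releases it as fatty acids, and secretes hormones such as leptin.

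Most of the unannotated loci were short, single and without a strand. No strand was given for 1008 of the 1666 loci (60.5%), for 0 of the 12624 loci with a transcript type and for 820 of the 5038 loci with a name alone (16.3%). The + strand held 365 and the - strand 293. A single transcript was assembled at 1491 loci (89.5%), among them all 1008 without strand, and at 23.8% of the loci with a type. The median span from start to end was 818 bases (quartiles 270 and 8103, range 201 to 386433), and it was 306 bases without and 9687 bases with a strand. The loci with a type had a median span of 30673.5 bases. A span of at most 300 bases was found at 503 loci and one of over 10000 bases at 366.

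Their levels were low. The median over the loci of the median FPKM in the 18 libraries was 0.751 (quartiles 0.440 and 1.117), against 2.37 for the loci with a type. The loci without strand had 0.603 and those with strand 1.02 FPKM. A median level over 1 FPKM was reached by 553 loci (33.2%) and by 77.2% of the loci with a type, and 20, 7 and 3 unannotated loci exceeded 5, 10 and 100 FPKM. Reads were present in all 18 libraries at 1263 loci (75.8%, against 96.1% of typed loci), and 12 loci had a median of 0. The filter was passed in all 18 libraries by 366 loci and in exactly 3 by 73, of which 4 passed only through the 3 pigs of 1 stage and were thus bound to differ between stages (MSTRG.21020 and MSTRG.20494 through 120 d, MSTRG.22399 and MSTRG.5798 through 60 d). The spread between pigs of a stage was wide, with a median coefficient of variation of 0.448 against 0.147 for typed loci. At equal levels of 0.5 to 1 FPKM the values were 0.445 over 622 unannotated and 0.271 over 1600 typed loci, but the shorter unannotated loci held fewer reads there (a median of 33.25 counts per library against 228.25), so counting error was not matched.

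**Figure D1:**
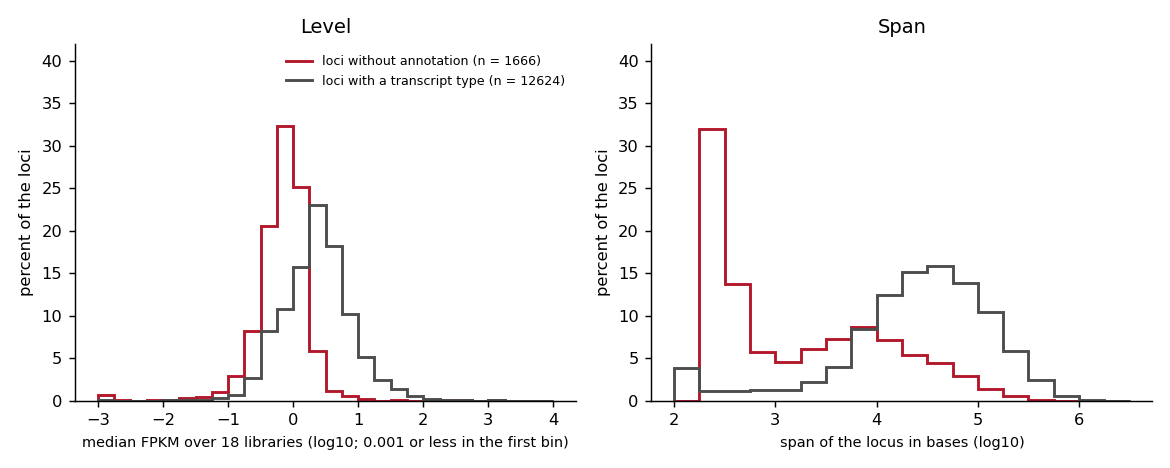
Distribution of the median FPKM over 18 libraries (left, log10) and of the span in bases (right, log10) for the 1666 loci without annotation and the 12624 loci with a transcript type, each as a percentage of its loci. The unannotated loci lie lower (median 0.751 against 2.37 FPKM) and their spans fall into a narrow peak near 300 bases with a broad shoulder above 1000 bases.

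A few loci were abundant. The highest, MSTRG.11031 (2:6750250-6757185, - strand, 4 transcripts), lay inside the lncRNA gene LOC102163816 of RefSeq, of which it covered 15.7%, and ranged from 1133 FPKM in 360 d replicate 3 to 1910 FPKM in 240 d replicate 1, with a median of 1685 FPKM. No stage stood apart for it (adjusted p = 0.43 for any difference, edgeR quasi-likelihood test). On the other strand of the same interval lay MSTRG.11032 (2:6750250-6757184), at 2.57 to 245 FPKM with a median of 35.9, and its highest and lowest libraries were spread over the stages. Whether counting used strand is not given in the sources used here, so reads of overlapping loci on opposite strands cannot be told apart. MSTRG.16135 (5:21506573-21507784, + strand) lay inside the RefSeq gene ZC3H10, 164 bases from the assembled ZC3H10 locus, and had 230 to 570 FPKM (median 338), whereas the ZC3H10 locus itself had 1.11 to 1.78 FPKM. MSTRG.1349 (1:182978890-182979103) was only 214 bases long, had no strand and no RefSeq gene, and lay 224245 bases from DDHD1. Its level was 189 to 438 FPKM, with a median of 249, and its rank rests on scaling to this short span. Both of the latter were highest in 360 d replicate 3, and neither was called in the test for any difference among stages (adjusted p = 0.765 and 0.352).

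The other 6 of the 10 highest were far lower, with medians from 8.38 to 15.4 FPKM. MSTRG.22324 (9:51302272-51302785) had no RefSeq gene, and was steady at 12.3 to 21.6 FPKM, while the nearest named gene, the olfactory receptor gene OR8D1 18392 bases away, stayed at or below 0.020 FPKM. MSTRG.11217 (2:13691982-13695948), in LOC110259264, ranged from 8.17 to 12.5 FPKM. MSTRG.16869 (5:90249395-90256962) lay in EEA1, which encodes an early endosome tether, and had 5.98 to 11.0 FPKM, with its lowest value in 360 d replicate 3. MSTRG.8787 (15:120063856-120069289), in the focal adhesion gene TNS1, had 4.06 to 13.4 FPKM, and MSTRG.10575 (18:32644339-32646653), in LOC100519283, had 5.61 to 14.97 FPKM. The exception to this steadiness was MSTRG.19403 (7:10867723-10868339), in LOC106504325. It had 2.12, 51.8 and 2.98 FPKM at 60 d and 41.7, 23.4 and 57.2 FPKM at 360 d, so that 1 pig of 60 d stood among the values of 360 d, and the trend over age was not called (log2 change 1.58 per 300 days, SE 0.76, adjusted p = 0.174, edgeR).

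Chromosome 1 held 183 of the loci, chromosome 6 held 153 and chromosome 13 held 150, and chromosome 17 held the fewest, 32. The counts followed the length of the chromosomes, taken as the end of the last RefSeq gene on each. Across the 18 autosomes the correlation was 0.937 with this length and 0.805 with the number of typed loci. These are descriptions of chromosomes that share the same libraries. Density ranged from 0.505 loci per Mb on chromosome 17 to 0.991 on chromosome 12. Relative to typed loci, chromosomes 11, 16 and 8 had the most (30.0, 22.8 and 20.4 per 100) and chromosomes 17 and 12 the fewest (8.21 and 8.25). Chromosome 12 was thus the densest per Mb, and next to the lowest per typed locus.

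**Figure D2:**
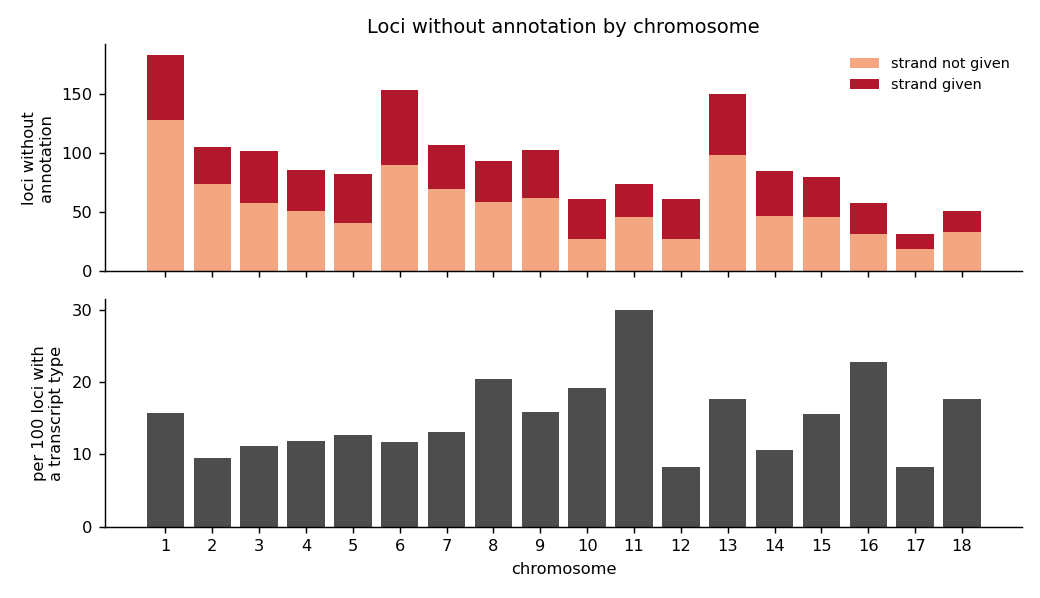
Number of unannotated loci on each autosome, split by whether a strand was given (top), and their number per 100 typed loci that passed the FPKM threshold (bottom). Chromosome 1 has the most (183), and chromosome 11 has the highest number per 100 typed loci (30.0).

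Many of these loci had an entry in another annotation of the same assembly. When the RefSeq genes of Sscrofa11.1 were laid over them, 850 overlapped a gene, 763 (45.8%) had at least 50% of their span in one, 643 lay wholly inside one, and 816 (49.0%) touched none. Of these 763 loci, 462 lay in protein-coding genes, 281 in lncRNA genes, 16 in pseudogenes, 3 in misc_RNA genes and 1 in a C region. The gene had a symbol for 398 of them and a LOC number for 365. For 357 of the 398 the symbol stood elsewhere in the deposited table, and for 41 it did not, which belonged to 24 genes including EEA1, COL4A1, the endosomal sorting gene TSG101, ANP32A and KALRN. An assembled locus over nearly the interval of COL4A1 was named COL4A2 there. Only 79 loci covered 90% or more of their RefSeq gene. RefSeq strand and exons were not used here, so exon, intron and antisense positions are not stated. The loci with no RefSeq gene were the shortest (median 342 bases), had the lowest level (0.650 FPKM) and most often lacked a strand (77.3%). Those in protein-coding genes had a median span of 4340.5 bases and 0.917 FPKM with 44.2% lacking a strand, and those in lncRNA genes had 2315 bases, 0.751 FPKM and 50.2%.

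Within genes the loci often came in strings. The 763 loci lay in 517 RefSeq genes, of which 111 held at least 2 and 25 at least 4. IMMP2L, a mitochondrial inner membrane peptidase gene, held 13, the polarity gene PARD3 and the receptor tyrosine kinase-like gene ROR1 held 12 each, WWOX 11 and RGS6 9. When loci at most 10000 bases apart were joined, 448 loci formed 176 runs of 2 or more, 54 of them with 3 or more, and 1218 loci stood alone. The longest run held 11 loci in ROR1 over 131873 bases (6:148629856-148761728), and the next held 7 loci over 51177 bases in a part of chromosome 13 without a RefSeq gene (13:173930878-173982054). Loci with another within 10000 bases had a median r of 0.680 with the nearest over the 18 libraries. Loci are not independent replicates, and no test was made.

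The nearest gene with a symbol overlapped the locus in 241 cases (14.5%), lay within 1 kb in 125, at 1 to 10 kb in 283, at 10 to 100 kb in 580 and farther in 437, with a median distance of 24678 bases. Overlapping loci were the longest (median 11604 bases) and highest (1.21 FPKM), and 13.3% of them had no strand, against 333 bases, 0.682 FPKM and 75.1% beyond 100 kb. Levels of a locus and its nearest typed gene moved together more closely at short range. The median r of log2(FPKM + 0.1) over the 18 libraries was 0.505 for 192 overlapping pairs, 0.332 within 1 kb, 0.235 at 1 to 10 kb, 0.130 at 10 to 100 kb and 0.0772 beyond. Pairs of typed genes had 0.191, 0.187, 0.136, 0.133 and 0.112 at the same distances. An r of at least 0.7 was found for 28.1% of the overlapping pairs, and for 7.82% of overlapping pairs of typed genes. Among overlapping pairs the median r was 0.506 for 45 on the same strand, 0.495 for 130 on opposite strands and 0.508 for 17 of unknown strand, and an r of at least 0.7 was found in 20%, 30.8% and 29.4% of them. These correlations are descriptions across loci that share 18 libraries, and reads shared between overlapping loci enter both sides.

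**Figure D3:**
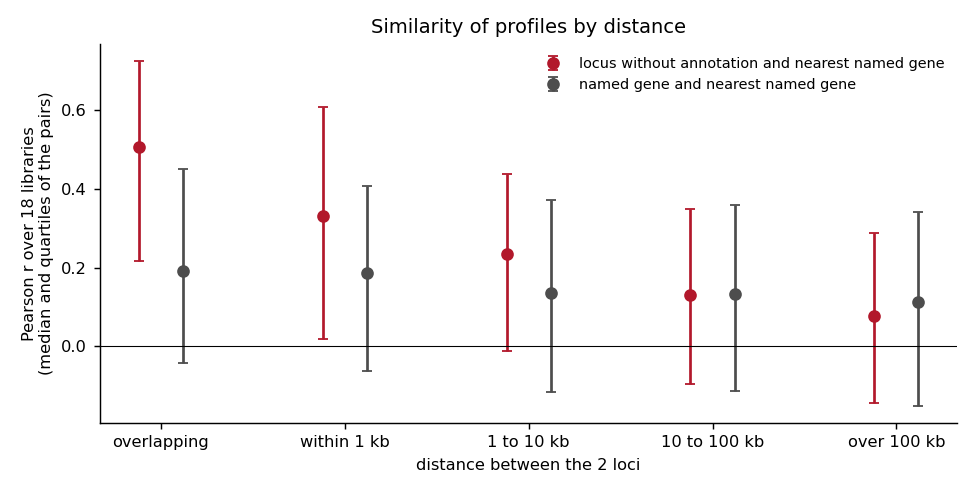
Pearson r over the 18 libraries between an unannotated locus and its nearest typed named gene, and between a typed named gene and its nearest typed named gene, by distance. Points are medians over pairs and bars are quartiles. The median for unannotated loci falls from 0.505 where the loci overlap to 0.0772 beyond 100 kb, and that for gene pairs from 0.191 to 0.112.

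The question of how levels changed as the backfat developed was put to each locus by edgeR's quasi-likelihood test on the counts, fitted to all 19470 loci at once. A locus was called at an adjusted p (Benjamini-Hochberg over the 19470 loci) of 0.05 or less with a log2 fold change of 1 or more in either direction. In bulk tissue, fewer cells of a type and less RNA per cell cannot be told apart. At least 1 of 14 comparisons called 207 of the 1666 loci, a count given without that over all 19470 loci, so it cannot be set against them. In this fit almost nothing was called between neighbouring stages. The paper, using edgeR at the same thresholds, reported differentially expressed genes at every step, and more than were called here among all loci. It does not name the edgeR test it used, and the source of the difference was not tested. At 120 d against 60 d, 0 loci were higher and 3 lower, where 0.175% of all tested loci were called higher and 0.0565% lower. At unadjusted p under 0.05 the counts were 92 and 92, and DESeq2 called 48 in all. Counts at unadjusted p and by DESeq2 are given here and below without the share of all loci, and are not set against it. The 3 calls became 0 without any 1 of the 6 pigs compared or without 300 d replicate 2, 1 without 300 d replicate 1, and 5 to 11 without 180 d replicate 1 or 3, 240 d replicate 1 or any 1 pig of 360 d. The other 4 steps (180 d against 120 d, 240 d against 180 d, 300 d against 240 d, 360 d against 300 d) gave 0 calls among the unannotated loci and 0.0% among all loci, with 180, 180, 93 and 135 loci at unadjusted p under 0.05, and DESeq2 called 28, 12, 4 and 16.

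The ends of the age range differed more. At 360 d against 60 d, 34 loci (2.04%) were called higher and 45 (2.70%) lower, with 3.07% and 2.04% called among all tested loci and 3.65% and 1.54% among typed loci. Of the 79 called, 14 had another called locus within 10 kb, so the counts are not counts of independent changes. The median log2 fold change was -0.225 for the unannotated loci and -0.0146 for all loci. The split moved with scaling and with single libraries. It was 28 higher and 58 lower when scaling factors came from annotated loci only, and 25 and 107 in limma on log2(FPKM + 0.1), where the median of all loci lay at -0.194. It was 12 and 9 without 360 d replicate 3, 17 and 25, 14 and 26, and 12 and 35 without 60 d replicates 1, 2 and 3, and 25 and 68 without 360 d replicate 1.

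Fitted along age, 46 loci rose and 65 fell, beside 2.56% and 2.23% of all loci, with a median of -0.225 per 300 days against -0.0174. This fit uses the same libraries as the comparison of its ends, and 54 loci were called in both (68.4% of the 79 and 48.6% of the 111). Of the 111, 22 had another called locus within 10 kb, and 6 of the 46 rises lay in PREP. The counts are thus not counts of independent changes. Limma on log2(FPKM + 0.1) gave 32 and 104, and leaving out 360 d replicate 3 gave 41 and 35. A difference among the 6 stages of any shape was called for 76 loci (4.56%), where 6.57% of all loci were called. That count was 31 to 33 without any 1 pig of 60 d, 31 and 42 without 120 d replicates 1 and 3, 48 without 240 d replicate 2 and 45 without 360 d replicate 3.

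Single stages were set against the mean of the other 5, comparisons that share their libraries. At 60 d, 34 loci were higher and 10 lower, beside 1.23% and 0.95% of all loci, and 21, 12 and 20 were called in all without replicates 1, 2 and 3 of that stage. The 34 include MSTRG.22399 and MSTRG.5798, which passed the FPKM threshold only through 60 d and were bound to differ. At 120 d, 27 were higher and 3 lower, beside 0.709% and 0.231%. The 27 include MSTRG.21020, which passed the threshold only through 120 d. Fibroblast markers (7 of 7 found, none at 0 throughout) summed to 3449 to 4933 FPKM at 120 d and to 751 to 3134 FPKM at the other stages, so the groups did not overlap, and their part in these 27 calls was not tested. The 120 d calls rested on each of its pigs, since 1, 8 and 2 loci were left in all without replicates 1, 2 and 3. It was 12, 16, 19 and 16 without 60 d replicates 1 and 3, 180 d replicate 2 and 300 d replicate 1, and 52 without 180 d replicate 1, and the split was 14 higher and 6 lower in limma on log2(FPKM + 0.1). At 360 d, 12 were higher and 12 lower, beside 0.981% and 0.303%, and limma on log2(FPKM + 0.1) gave 3 and 24. Without 360 d replicate 3 the count was 1, and without replicate 1 there were 43. At 300 d, 1 locus was higher and 0 lower, beside 0.0154% and 0.0%, and it was lost without 60 d replicate 3, 120 d replicate 1, 180 d replicate 1, 300 d replicate 1 or 360 d replicate 2. At 180 d and 240 d the counts were 0, with 181 and 174 loci at unadjusted p under 0.05 and 19 and 22 calls by DESeq2, and 0.0% of all loci were called.

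The stage with the highest mean was 60 d for 500 loci (30.0%, against 35.5% of all loci), 120 d for 361 (21.7% against 16.2%), 180 d for 222, 240 d for 186, 300 d for 212 (12.7% against 7.80%) and 360 d for 185 (14.8% of all loci). Of the 79 loci called between 360 d and 60 d, 38 had no strand, 30 lay at least 50% in a RefSeq gene, and 30 lay within 10 kb of a typed named gene, of which 5 had a gene called the same way and 22 a gene whose fold change had the same sign. Of the 111 called along age, 56 had no strand, 47 lay in a RefSeq gene, and 49 lay within 10 kb of a typed named gene, which was called the same way in 12 and had the same sign in 37. Over all 573 unannotated loci within 10 kb of a typed named gene, called or not, the sign was the same in 60.4% at 360 d against 60 d and in 64.2% along age.

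**Figure D4:**
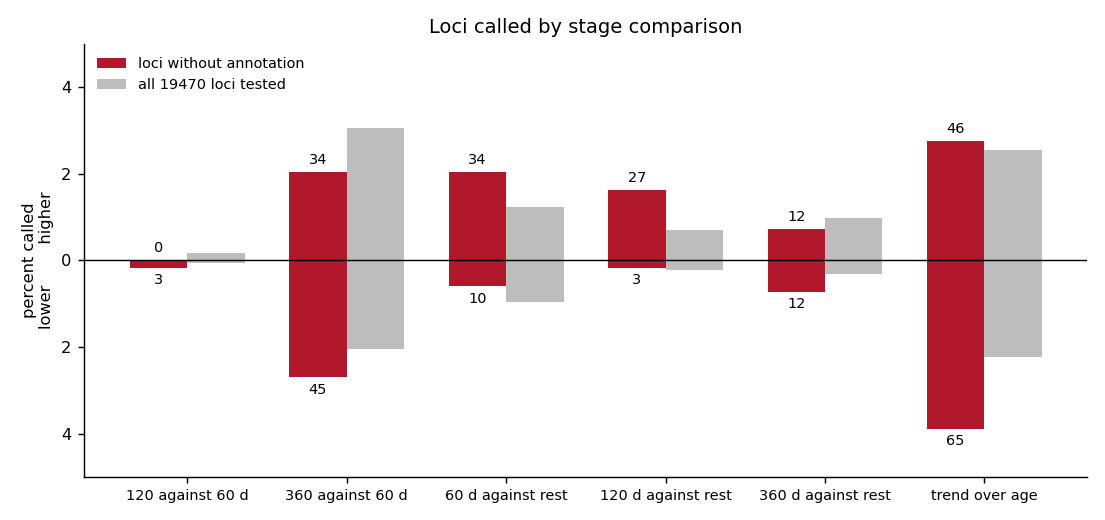
Percentage of the 1666 unannotated loci and of all 19470 tested loci called higher (up) or lower (down) in 5 stage comparisons and along age, with the number of unannotated loci printed at each bar. Lower calls outnumber higher ones at 360 d against 60 d (45 and 34) and along age (65 and 46), and the reverse holds at 60 d and 120 d against the rest.

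Genes of lipid synthesis and storage had 6 unannotated loci within 10 kb, beside 4 of the 23 genes listed (LEP, LPIN1, CEBPA and PLIN1). Of these 6, 3 were called for any stage (6.57% of all loci), 1 rose along age (2.56% of all loci) and 2 were higher at 60 d (1.23% of all loci), counts too small to be set against those shares. Lipid breakdown genes had 1 such locus (at CPT2), matrix genes 1 (at MGP, not called) and early response genes 3 (at NR4A1 and KLF6). Of these 3, 1 was called for any stage (6.57% of all loci) and 2 rose along age (2.56% of all loci). At 60 d 1 of them was called in either direction (1.23% of all loci higher and 0.95% lower). These counts, too, are too small to be set against the shares.

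One rise along age lay inside the assembled locus named LEP, after the gene of the satiety hormone leptin. MSTRG.10499 (18:20103533-20106133, + strand, no RefSeq gene) lay within the assembled LEP locus, which was given the - strand. It had 0.0757, 0.230 and 0.162 FPKM at 60 d, 0.0175, 0.253 and 0.0696 at 120 d, and 0.591, 0.347 and 0.302 at 180 d. At 240 d it had 1.25, 1.65 and 0.503, at 300 d 0.981, 0.424 and 1.19, and at 360 d 0.829, 1.45 and 2.79 FPKM. All 12 libraries from 180 d on exceeded all 6 earlier ones, of which the separation of 360 d from 60 d was a condition of naming. The log2 change was 3.64 at 360 d against 60 d (SE 0.78, adjusted p = 0.00979) and 4.004 per 300 days along age (SE 0.70, adjusted p = 0.00158), and the call at 360 d held without any single library (highest adjusted p 0.0451). LEP itself ranged from 0.663 to 24.1 FPKM and rose by 4.69 per 300 days (SE 0.82, adjusted p = 0.00159, edgeR). The part that reads shared by the 2 overlapping loci have in this was not tested.

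A pair of loci at LPIN1, whose product lipin makes diacylglycerol for triglyceride synthesis, was high at 60 d. MSTRG.14339 (3:124929414-124934877, - strand) had 6.85, 4.33 and 2.73 FPKM at 60 d and 0.0381 to 2.04 FPKM in the other 15 libraries. MSTRG.14338 (3:124924696-124929155, no strand), 259 bases away, had 5.81, 2.48 and 2.20 FPKM and 0.0788 to 2.13 FPKM. For both, all 3 pigs of 60 d stood above all others, which the rule for naming loci of stage comparisons required. The highest of the others was 360 d replicate 2. At 60 d they were higher by 3.28 (SE 0.52, adjusted p = 0.00239) and 3.04 (SE 0.50, adjusted p = 0.00285) on the log2 scale, and both calls held without any single library. An assembled locus with the name LPIN1 on the + strand (MSTRG.14337) spans both, with 0.408 to 3.56 FPKM, and was higher at 60 d by 1.36 (SE 0.23, adjusted p = 0.0038). The typed LPIN1 locus on the - strand (MSTRG.14340) had 31.4, 29.3 and 20.9 FPKM at 60 d and 8.85 to 19.5 FPKM elsewhere. Its difference of 0.89 (SE 0.18, adjusted p = 0.00949) was below the fold threshold.

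The steepest of the 5 named declines along age stood beside HSD17B4, an enzyme of peroxisomal fatty acid oxidation. MSTRG.12425 (2:123305506-123313400, - strand) ended 40 bases before the HSD17B4 locus, which was given the + strand. It had 2.56, 3.15 and 6.18 FPKM at 60 d, 1.24, 1.6 and 2.63 at 120 d, and 1.21, 1.23 and 2.12 at 180 d. At 240 d it had 1.26, 0.905 and 1.25, at 300 d 0.837, 1.05 and 0.423, and at 360 d 0.962, 0.561 and 0.404 FPKM. The values of 60 d and 360 d did not overlap, and the fall was 2.35 per 300 days on the log2 scale (log2 change -2.35, SE 0.33, adjusted p = 0.000283), with an adjusted p of at most 0.00148 without any single library. HSD17B4 had 11.11 to 24.2 FPKM and was not called (-0.24, SE 0.21, adjusted p = 0.478, edgeR).

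MSTRG.180 (1:19730747-19755694, - strand) stood in the same position, 26 bases before the + strand locus of FBXO30, a ubiquitin ligase subunit gene. It had 2.37, 1.78 and 1.70 FPKM at 60 d and 0.805, 0.683 and 0.575 at 360 d, with 0.991 to 1.47 between. These 3 sets did not overlap. The log2 fold change at 360 d was -1.33 (SE 0.17, adjusted p = 0.000432), and that of FBXO30, at 2.57 to 4.85 FPKM, was 0.26 (adjusted p = 0.324, edgeR).

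**Figure D5:**
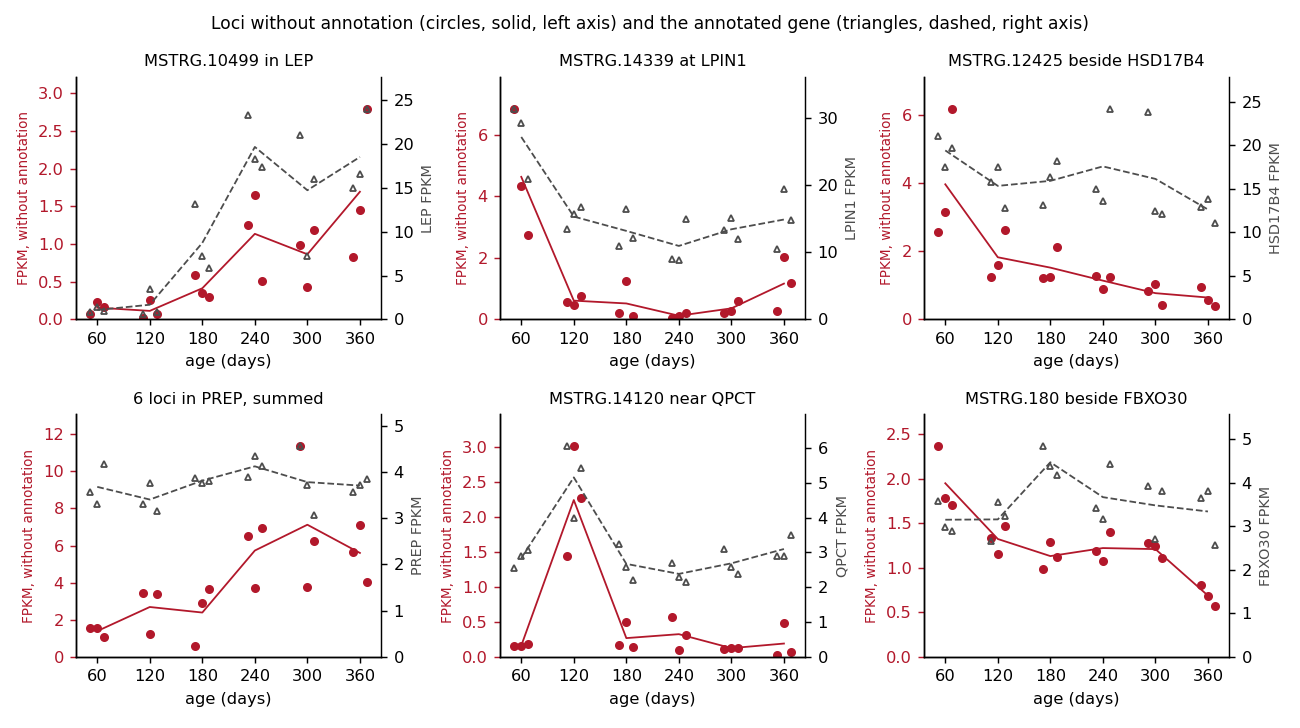
FPKM in each of the 18 libraries by age for 5 unannotated loci and for the sum of 6 loci in PREP (filled circles, left axis), with the annotated gene beside or around them (open triangles, right axis); lines join stage means and both axes start at 0. Locus and gene rise together at LEP and are both highest at 60 d at LPIN1, while the stage means of PREP, HSD17B4 and FBXO30 take another course than those of the loci beside them.

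Further calls along age lay in or near genes of several kinds. MSTRG.16053 (5:17385207-17399030, - strand), inside the assembled + strand locus of NR4A1, an immediate early nuclear receptor gene, had 1.22, 0.616 and 0.971 FPKM at 60 d and 3.43, 2.29 and 2.78 at 360 d. Its trend was 1.65 (SE 0.33, adjusted p = 0.00346), and NR4A1, at 6.45 to 28.2 FPKM, rose by 1.04 (SE 0.30, adjusted p = 0.0274). MSTRG.3040 (11:7131870-7145226), which contains the RefSeq gene LOC102166871 in 15.9% of its span, fell from 2.19, 1.87 and 1.99 FPKM at 60 d to 0.358, 0.725 and 0.449 at 360 d, with a trend of -1.63 (SE 0.30, adjusted p = 0.00211). MSTRG.9739 (17:31262671-31275337, 45300 bases from NANP) and MSTRG.10754 (18:50305941-50310682, in LOC110257536) rose by 1.77 (SE 0.38, adjusted p = 0.00559) and 1.56 (SE 0.35, adjusted p = 0.00699). These 4 trend calls held without any single library. Between 60 d and 360 d the libraries of MSTRG.16053, MSTRG.3040, MSTRG.9739 and MSTRG.10754 did not overlap.

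MSTRG.19117 (6:159019002-159035634, + strand) lay across from CZIB and CPT2, the latter encoding the inner carnitine palmitoyltransferase of mitochondrial fatty acid import. It had 1.74, 2.38 and 1.56 FPKM at 60 d and 0.963, 0.943 and 0.543 at 360 d, and the 3 pigs of 240 d, at 0.540 to 0.835 FPKM, were as low. The any-stage test gave an adjusted p of 0.0119. The trend was -1.07 (SE 0.25, adjusted p = 0.00879, edgeR), and its size fell under 1 without 60 d replicate 2 (-0.933) or 360 d replicate 3 (-0.998). The locus on the - strand, named CZIB;CPT2 in the table (MSTRG.19116), had a trend of -0.62 (adjusted p = 0.0352), below the fold threshold.

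MSTRG.127 (1:14854537-14857110, 2512 bases from RMND1) and MSTRG.5004 (13:21666889-21670351, 59 bases from LRRFIP2) fell by 1.02 and 1.06 per 300 days (adjusted p = 0.00236 and 0.00391), and neither neighbour was called (adjusted p = 0.564 and 0.483). MSTRG.16969 (6:803632-830615) and MSTRG.16045 (5:17193760-17204291), in RefSeq's CBFA2T3 and FIGNL2, rose by 1.0 (adjusted p = 0.00795) and 1.12 (adjusted p = 0.00806). CBFA2T3 itself rose by 1.14 (adjusted p = 0.00483). These 4 stood so close to the fold threshold that the size fell under 1 without 4, 3, 8 and 1 of the 18 libraries, with values down to -0.973, -0.979, 0.843 and 0.993, while adjusted p stayed at or below 0.0258 (edgeR).

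At 360 d 2 loci moved by less than the fold threshold but with little spread. MSTRG.3461 (11:76943053-76957773, + strand) lay in the RefSeq gene COL4A1 and inside an assembled - strand locus named COL4A2, both basement membrane collagen genes. It had 9.52, 9.04 and 9.82 FPKM at 360 d and 4.28 to 8.31 FPKM before, without overlap (any-stage adjusted p = 0.00802, and 0.74 at 360 d against the rest, SE 0.11, adjusted p = 0.00293). That assembled locus (11:76858152-76997551) spans nearly the interval of RefSeq's COL4A1 (11:76858332-76997409), although it was named COL4A2. It had 145 to 258 FPKM and no difference was called at 360 d (adjusted p = 0.948, edgeR). MSTRG.22217 (9:41622817-41639518), overlapping ZBTB16, a zinc finger gene, had 1.16, 1.23 and 0.972 FPKM at 360 d and 1.59 to 2.58 FPKM before (any-stage adjusted p = 0.011, and -0.67 at 360 d, SE 0.11, adjusted p = 0.00602). Both any-stage calls held without any single library.

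At 120 d against the rest, 30 loci were called in either direction. Of these, 10 lay at least 50% in a RefSeq gene, beside 45.8% of the 1666 loci, a difference that was not tested. The loci named here as high at 120 d had to be free of overlap between 120 d and the other 15 libraries. MSTRG.14120 (3:102768175-102768379), of 205 bases and 26692 bases from QPCT, had 1.44, 3.01 and 2.27 FPKM at 120 d and 0.026 to 0.565 FPKM in the other 15 libraries. It was higher at 120 d by 3.29 (SE 0.44, adjusted p = 0.00363), and the call held without any single library (highest adjusted p 0.0454). QPCT, a glutaminyl cyclase gene, had 6.06, 3.98 and 5.43 FPKM at 120 d and 2.15 to 3.5 FPKM elsewhere, a difference of 0.90 (SE 0.15, adjusted p = 0.00957) below the fold threshold. MSTRG.21020 (8:32372890-32373380, 5542 bases from UCHL1) had 1.14, 1.52 and 0.719 FPKM at 120 d and 0 to 0.243 elsewhere, a difference of 3.89 (SE 0.56, adjusted p = 0.00453, but 0.056 without 120 d replicate 1). It passed the FPKM threshold only through the pigs of 120 d, so its high level there is a description. UCHL1 itself was not called (-0.84, adjusted p = 0.241).

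MSTRG.8866 and MSTRG.8867 (15:128221045-128225656 and 15:128227240-128230317) lay in LOC106506385, 17058 and 12397 bases from IRS1, a substrate of the insulin receptor. They had 1.51 to 1.84 and 1.6 to 1.99 FPKM at 120 d against at most 0.894 and 1.41 elsewhere (2.09 and 1.96, adjusted p = 0.0315 and 0.0198), and both calls were lost without any 1 of the 3 pigs of 120 d (adjusted p up to 0.199). IRS1 was not called (0.26, adjusted p = 0.319). MSTRG.12966 (3:8832143-8832414, 1860 bases from TRIM56) had 2.11 to 3.30 FPKM at 120 d and at most 1.40 elsewhere, and 8 of 18 omissions removed its call (edgeR adjusted p = 0.0368 with all libraries, up to 0.188).

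The remaining named loci of single comparisons rested on fewer pigs. Here too, the absence of overlap between the libraries compared was a condition of naming. For 360 d against 60 d, MSTRG.2926 (10:66486001-66488097), 276 bases from the early response gene KLF6, had 0.270, 0.178 and 0.133 FPKM at 60 d and 2.30, 0.540 and 0.847 at 360 d. Its log2 fold change was 2.83 (SE 0.68, adjusted p = 0.0168), lost without 360 d replicate 1 or 60 d replicates 2 or 3 (adjusted p up to 0.0651), and KLF6 rose by 1.3 (SE 0.16, adjusted p = 0.000395). MSTRG.23035 (9:139500237-139507564, 21357 bases from EGFR) and MSTRG.10823 (18:55975169-55981293) were at 1.71 and 3.36, and at 1.24 and 2.28 FPKM, in 360 d replicates 2 and 3 but at 0.0611 and 0.161 FPKM in replicate 1. Each lost its call in 4 of 18 omissions. MSTRG.20629 (7:105329917-105330141) lost its call in 7.

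Of the 5 named as lower at 360 d, MSTRG.21499 (8:107268467-107268733) had 1.33, 2.73 and 0.873 FPKM at 60 d and 1.85 to 3.06 at 120 d. It had at most 0.199 FPKM at 240 d and 0.0222, 0 and 0 at 360 d (adjusted p = 0.0101, and 0.0501 without 360 d replicate 3). MSTRG.7517 (14:89855634-89886612), MSTRG.3359 (11:58499164-58499388), MSTRG.22399 (9:58405300-58405630, in NTM) and MSTRG.19392 (7:8663586-8663823, 866 bases from HIVEP1) were between 0 and 0.0966 FPKM at 360 d, and between 0.5 and 2.07 FPKM at 60 d. Their calls were lost in 10, 4, 13 and 6 of 18 omissions (edgeR adjusted p up to 0.162). MSTRG.22399 passed the FPKM threshold only through the pigs of 60 d, so its call is a description.

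At 60 d against the rest, MSTRG.10660 (18:41822374-41826719, 14491 bases from NEUROD6) had 0.952, 2.06 and 1.07 FPKM and at most 0.791 FPKM elsewhere, and its call (2.61, SE 0.56, adjusted p = 0.0135) was lost without 60 d replicate 2 (adjusted p = 0.107). MSTRG.22399 was also called there and was lost without any 1 of its 3 pigs (adjusted p up to 0.206). MSTRG.5798 (13:100257968-100258577) lost its call in 10 omissions. Both passed the FPKM threshold only through the pigs of 60 d, so a high level at that stage was fixed by the filter. At 120 d against 60 d, the named loci were MSTRG.10493 (18:19911865-19917921), with 2.13 to 2.30 FPKM at 60 d and 0.306 to 0.825 at 120 d, and MSTRG.5431 (13:56030449-56030659), with 1.21 to 2.58 and 0 to 0.0845 FPKM. Their calls were lost in 10 and 12 omissions (edgeR adjusted p up to 0.17). MSTRG.5431 was also lower at 120 d against the rest, lost without any 1 of the 3 pigs of 120 d.

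At 360 d against the rest, MSTRG.4509 (12:47915942-47916539), 282 bases from the TLCD2 and ssc-mir-22 locus, had 1.02, 1.04 and 1.38 FPKM and at most 0.990 elsewhere, and the call (1.10, SE 0.26, adjusted p = 0.0289) was lost without 360 d replicate 2 or 3 (adjusted p up to 0.237). MSTRG.14845 (4:58875241-58908608), in LOC106510043, had 0.529, 0.428 and 0.188 FPKM and at least 0.604 elsewhere (-1.42, SE 0.32, adjusted p = 0.0232), and was lost without the same libraries (adjusted p up to 0.158). MSTRG.5047 (13:24668319-24668573) lost its call in 15 of 18 omissions (edgeR).

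A group chosen after its values were seen lay in PREP, the gene of prolyl endopeptidase. It held 6 unannotated loci (MSTRG.486 to MSTRG.491) within 184019 bases (1:71843342-72027360), of which 5 had no strand and MSTRG.491 the - strand. Summed over the 6, the level was 1.55, 1.56 and 1.05 FPKM at 60 d, 3.43, 1.22 and 3.40 at 120 d, and 0.603, 2.88 and 3.68 at 180 d. It was 6.54, 3.68 and 6.97 FPKM at 240 d, 11.4, 3.77 and 6.23 at 300 d, and 5.65, 7.13 and 4.02 at 360 d. All 9 libraries from 240 d on reached at least 3.68 FPKM, the level of the highest earlier library, and 180 d replicate 1 was the lowest of all. All 6 loci rose along age, by 2.13 to 3.02 on the log2 scale per 300 days (adjusted p 0.00222 to 0.0131, edgeR), and all 6 calls held without any single library (adjusted p up to 0.0342). The annotated PREP locus, 206607 bases from the first of them, had 3.06 to 4.56 FPKM and was not called (0.25, SE 0.12, adjusted p = 0.189). The 6 loci lie in 1 gene and are not independent of each other. In the other 24 RefSeq genes with 4 or more unannotated loci no locus was called along age. In PTPRG, a receptor phosphatase gene, 3 of 6 were called for any stage, with summed levels of 17.6 to 23.8 FPKM at 60 d and 10.02 to 14.1 FPKM at 360 d.

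The locus called in the most comparisons, also chosen after its values were seen, was MSTRG.8011 (15:7034434-7038198), 460057 bases from ZEB2, called in 6 of 14. It had 0.418, 0.168 and 0.220 FPKM at 60 d, 0.246, 0.216 and 0.133 at 120 d, and 0.617, 0.415 and 0.751 at 180 d. It had 1.14, 1.29 and 1.36 FPKM at 240 d, 2.32, 0.971 and 2.13 at 300 d, and 1.20, 0.801 and 0.841 at 360 d. Its 300 d replicates 1 and 3 were the highest libraries. It was the only unannotated locus called at 300 d against the rest (1.82, SE 0.25, adjusted p = 0.0262), and it was called along age (3.12, SE 0.56, adjusted p = 0.00176, edgeR).

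A few loci were decided by 1 library. MSTRG.1293 (1:179431611-179431884) had 12.7 FPKM in 180 d replicate 2 and 0.193 to 1.18 FPKM in the other 17, a ratio of 10.8 to the next highest. MSTRG.8563 and MSTRG.8564 (15:91827690-91835021 and 15:91835307-91836182), beside ZSWIM2, had 12.3 and 11.8 FPKM in 180 d replicate 3 and at most 2.57 and 2.38 FPKM elsewhere, and ZSWIM2 itself had 13.1 FPKM there and 0.466 to 3.32 FPKM elsewhere. In the other direction, 6 loci were at 0 in 1 library and at 0.5 FPKM or more in the other 17. MSTRG.8786 (15:120057516-120063820, in TNS1) was at 0 in 120 d replicate 2 and at 4.24 to 11.5 FPKM elsewhere, while MSTRG.8787, 36 bases away, had 10.9 FPKM in that library. The other 5 lay in LOC106506784, TMEM30B, HSPG2, CCND3 and SNX33, and were at 0 in 360 d replicate 2, 180 d replicate 2 (TMEM30B and HSPG2) and 240 d replicate 1 (CCND3 and SNX33).

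The unannotated loci together took a similar share of the counts in all libraries but 1, and 3 of them held much of it. They held 3.02 to 3.57% of the counts in 17 libraries and 2.32% in 360 d replicate 3, and 1013 to 1241 of them reached 0.5 FPKM in the 17 and 889 in that library. Without MSTRG.11031, MSTRG.16135 and MSTRG.1349 the share was 1.61 to 2.10% and 1.31%. No stage was called different from the other 15 libraries (exact permutation test over 816 choices, two-sided, adjusted p of at least 0.849 over 6 stages), with means from 3.02% ± 0.603 (SD, n = 3) at 360 d to 3.32% ± 0.188 at 240 d. Across the 18 libraries the share had r = -0.153 (permutation p = 0.589) and rho = 0.141 (permutation p = 0.581) with age, 2 relations of which neither passed. Without 360 d replicate 3, r was 0.297 (permutation p = 0.249), and without the 2 libraries farthest from the median age it was -0.219.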

How the data were processed

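Ribosomal RNA was removed from total RNA of 18 backfat samples, and the libraries were read as pairs of 150 bases. Reads were trimmed, mapped by the authors with Hisat2 to Sus scrofa 11.1 (Ensembl 96) and assembled with StringTie. The FPKM values were computed by the authors with StringTie, and the deposited counts are whole numbers for each locus that carry no normalization. The counting tool, its use of strand and the way names were given to assembled loci are not given in the sources used here. All 18 libraries and 0 unmapped columns were involved.

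The 19470 loci that reached 0.5 FPKM in 3 or more libraries (X and Y included) entered 1 fit of edgeR 4.0.16 (quasi-likelihood, TMM scaling, 6 stage groups, common coefficient of variation 0.340, residual degrees of freedom 12), and p-values were adjusted over all of them. Standard errors were obtained from the log2 fold change and the root of F. Age entered a fit of its own, per 300 days, which treats full sibs as independent. Calls needed an adjusted p of at most 0.05 and, except for the any-stage test, a log2 fold change of 1 or more in size. At 74077094 to 84236689 counts per library the loci had a median of 41 counts each (19.5 without strand), so counting error adds to the spread between pigs. The script was tested on simulated counts.

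Distances run between the intervals of a locus and the nearest locus with a symbol on the same chromosome. RefSeq gene spans of Sscrofa11.1 gave the overlaps, and 2907 of the 8102 Ensembl identifiers of the table were given a symbol from a gene name table. Python 3.11.15, pandas 2.3.3 and scipy 1.17.1 were used. Named loci are the 10 highest, up to 5 called per direction and comparison (at least 1 FPKM in the higher group, no overlap between the libraries compared, or for trend and any-stage test the lowest p), the 3 most decided by 1 library, the 5 highest in RefSeq genes, and those at the filter's edge. The loci, lists and tests were chosen with earlier results of these data known. The alternatives were other filters, scalings, tools (DESeq2 1.42.0, limma 3.58.1), pseudocounts, thresholds and samples, a Y-linked level term and a replicate block. The share of counts without the 3 highest loci, or without 2 of the libraries farthest from the median age, was added after the data were seen.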

Additional observations from a re-analysis of the deposited data

How the results depend on the processing

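None of the 36 calls of named loci with a direction turned it under the alternatives run, and the any-stage calls have none. Named loci were picked from these same libraries for lack of overlap or low p, so a turn could hardly occur. Its absence is therefore no support. Over all 41 calls, 994 of 1232 values stayed on the same side of the threshold and 238 did not. No alternative removed 9 calls. The 36 values for the adjusted p alone could not be lost. A term for the level of Y-linked genes removed 17 of 41 calls, and limma on log2(FPKM + 1) removed 24 of 41. Missing values were left out, and DESeq2 gave 36 of 41. Counts of called loci moved more, and for none of the values here was the cause tested. Library 360 d replicate 3, the low levels (0.751 FPKM at the median), 3 sibling pigs per stage and the fold threshold limit what these counts can show. DESeq2 called 48 at 120 d against 60 d, 28, 12, 4 and 16 for the later steps, 128 at 360 d against 60 d, 78, 63, 19, 22, 12 and 39 for 60 d to 360 d each against the rest, and 304 for any stage. A term for the level of Y-linked genes gave 0 at 120 d against 60 d, 42 at 360 d against 60 d, 14, 0 and 6 for 120 d, 300 d and 360 d against the rest, 26 for any stage and 70 along age. The adjusted p alone gave 75 at 60 d and 38 at 360 d against the rest. A filter of 1 FPKM in any library gave 1 at 120 d against 60 d, and no FPKM filter gave 0 there, 14 at 120 d and 14 at 360 d against the rest, and 41 for any stage. Fits on 6 libraries gave 19 at 120 d against 60 d and 1 at 180 d against 120 d. Limma with a pseudocount of 0.01 gave 13 at 120 d and 0 at 300 d against the rest and 135 at 360 d against 60 d, with 0.1 it gave 0 at 300 d and 132 at 360 d against 60 d, 20 at 120 d against the rest, and with 1 it gave 11 and 3 for the first 2 steps, 23 at 360 d against 60 d, 8, 9, 0 and 0 for 60 d, 120 d, 300 d and 360 d against the rest and 19 along age. Limma-voom with library weights gave 42 and 4 for the first 2 steps, 51 at 360 d against 60 d, 95, 104, 1, 0 and 5 for 60 d, 120 d, 240 d, 300 d and 360 d against the rest and 132 for any stage. As a share of summed FPKM, the loci had r = -0.477 (permutation p = 0.0272) and rho = -0.455 (permutation p = 0.0610) with age, and only r passed.

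With 1 library left out, the counts ranged from 0 to 11 (120 d against 60 d), 0 to 0 (180 d against 120 d, 240 d against 180 d, 300 d against 240 d), 0 to 1 (360 d against 300 d), 21 to 93 (360 d against 60 d), 12 to 59, 1 to 52, 0 to 1, 0 to 3, 0 to 2 and 1 to 43 (60 d to 360 d against the rest), 31 to 97 (any stage) and 76 to 116 (trend).

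The replicate numbers did not pair the pigs. Residuals correlated by 0.0133 on average over 45 pairs of libraries with the same number and by -0.00619 over 90 pairs with different ones, and 5 of 18 libraries correlated best with their own number. With the replicate block the counts were 2 at 300 d against the rest, 2 at 120 d against 60 d, 79 at 360 d against 60 d, 46, 25 and 25 for 60 d, 120 d and 360 d against the rest, 57 for any stage and 105 for the trend.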
